A study of Mus musculus with 18 samples.

Results

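Erythroblasts from mice with 1 null and 1 wild-type allele of Klf1 (WT/KO) were compared with those of mice with 2 wild-type alleles (WT/WT). The comparison used 5 WT/KO and 3 WT/WT libraries, chosen by their genotype label, of the 18 libraries of the series. All were RNA-seq libraries of spleen cells sorted by flow cytometry for 2 surface proteins of red cell precursors, CD71 (the receptor for transferrin) and TER119. The other genotypes carry D45, the MommeD45 missense allele of Klf1, in 3 WT/D45, 3 D45/D45 and 4 D45/KO libraries, and they are used here only for the estimate of the spread and where they are named. The labels give no age, sex, strain or treatment for either group, and no source used here says what was removed from Klf1 in the KO allele. Replicates are biological according to the series design.

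The product of Klf1 is a zinc finger protein of erythroid nuclei that binds CACC box sequences and activates the beta globin gene, haem enzymes, membrane and skeleton proteins, blood group antigens and cell cycle regulators of red cell precursors. Mice without it die as fetuses from failing red cell production, whereas mice with a single functional copy are viable and outwardly healthy. In people, loss of a single copy of KLF1 is known for the In(Lu) blood type, in which Lutheran and CD44 antigens are weak on red cells, and for raised fetal haemoglobin. The question put to the data is what a single missing copy does to the transcripts of spleen erythroblasts.

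Total counts ran from 9.36 to 54.7 M (M stands for 1000000) in WT/KO and from 20.7 to 23.5 M in WT/WT, and 13405 of 23365 genes had enough counts to be tested. Erythroblast markers were abundant in all 8 libraries. Their summed level over 10 genes was 27615 to 399338 CPM in WT/KO and 40904 to 747251 CPM in WT/WT. CPM here means counts per 1000000 of a library size scaled by the TMM method of edgeR. It is therefore no share of all counts. In WT/WT replicate 3, with a TMM factor of 0.366, Hbb-b1 alone stood at 639423 CPM, while all globin was 47.2% of counts. The libraries were not of 1 kind, however. The mean log2 CPM of B cell markers was 6.56 to 6.68 in WT/KO replicates 1 to 3 and 5.86 in WT/WT replicate 1, but -2.30 to -1.31 in WT/KO replicates 4 and 5 and WT/WT replicates 2 and 3. These are called the high and the low libraries below. Low libraries thus made up 2 of 5 WT/KO and 2 of 3 WT/WT libraries, and for many results the value within them or with the B cell marker level in the fit is given too. WT/KO replicate 3, the shallowest library, had 11.5% of its counts on the ribosomal RNA gene Rn45s, against 0.107% to 1.06% in the other WT/KO libraries. Transcripts of Y-linked genes were present in WT/KO replicates 1 and 3 and in 0 of 3 WT/WT libraries. The part of any of these in the results was not tested, beyond the fits named beside them. In such bulk libraries fewer cells of a type and less RNA per cell cannot be told apart.

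Klf1 itself stood at a lower mean in WT/KO, but the groups overlapped. Its level was 230, 158, 191, 659 and 834 CPM in WT/KO replicates 1 to 5 and 452, 1047 and 964 CPM in WT/WT replicates 1 to 3. In these TMM-scaled CPM the high libraries were lowest in each genotype, and WT/KO lay below WT/WT among the high and among the low ones. TMM factors were 1.60 to 1.93 in the high and 0.366 to 0.807 in the low ones of these 8 libraries. Relative to unscaled totals the order was not the same. WT/WT replicates 1 to 3 had 19233 of 23.1 M, 13216 of 20.7 M and 8275 of 23.5 M counts on Klf1. The low WT/KO replicates 4 and 5 had 8475 of 24.6 M and 24921 of 37.0 M. The means were 415 ± 311 CPM (SD, n = 5) and 821 ± 322 CPM (n = 3). The log2 fold change of WT/KO over WT/WT was -0.99 ± 0.56 (SE) in the edgeR quasi-likelihood fit to all 18 libraries (Benjamini-Hochberg adjusted p = 0.818). An exact two-sided permutation test of the CPM values gave p = 0.143, where 5 against 3 libraries allow no p below 0.0357. Once B cell marker level was entered as a covariate, the log2 fold change was -0.77 ± 0.25 (edgeR adjusted p = 0.494). In the low libraries alone it was -0.49 ± 0.28 and in the high ones -1.33 ± 0.46.

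Set against Gata1, the gene of another erythroid transcription factor, Klf1 separated the genotypes. The quotient of Klf1 over Gata1 CPM was 1.40, 1.44, 1.50, 1.28 and 1.29 in WT/KO replicates 1 to 5 and 2.33, 3.06 and 2.11 in WT/WT replicates 1 to 3. No WT/KO library reached the lowest WT/WT library. In WT/KO the high libraries, at 1.40 to 1.50, lay above the low ones, at 1.28 and 1.29. The high WT/WT library, at 2.33, lay between the low ones. The mean was 1.38 ± 0.094 (SD, n = 5) in WT/KO and 2.50 ± 0.50 (n = 3) in WT/WT, so that WT/KO had 55.3% of the wild-type quotient. The exact two-sided permutation test gave p = 0.0357, the smallest that 5 against 3 libraries allow. This quotient was chosen after the values were seen. Among 27 erythroid transcription factor and erythroblast marker genes used as the denominator in turn (mean of at least 50 CPM), the quotient had a lower mean in WT/KO for 26, with a median of 68.8% of the wild-type value. The groups did not overlap for 6 of the 27, which were Gata1, Tal1, Zfpm1, Gfi1b, Foxo3 and Cbfa2t3. All 27 quotients share Klf1 as the numerator, so they are not separate evidence on its level. Quotients over the other tested genes, of which 62.2% of all had log2 fold changes above 0, were not made for comparison. Against the mean log2 level of 9 erythroblast markers, Klf1 differed by -0.39 on the log2 scale, with overlapping groups (exact permutation p = 0.25, n = 5 and 3).

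The other genotypes showed the same order of Klf1 over Gata1. It was 0.806 to 1.39 in the 4 D45/KO libraries and 2.02 to 2.28 in the 3 D45/D45 libraries, and 2.50 ± 0.020 (SD, n = 3) in WT/D45. The exact two-sided permutation test of D45/KO against D45/D45 gave p = 0.0571, the smallest possible with 4 against 3 libraries. In the whole series the 9 libraries with a KO allele were at 1.50 or below and the 9 without one at 2.02 or above. Gata1 itself had a log2 fold change of -0.09 ± 0.57 in WT/KO against WT/WT, which turned to 0.07 ± 0.23 with the B cell marker covariate.

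**Figure D1:**
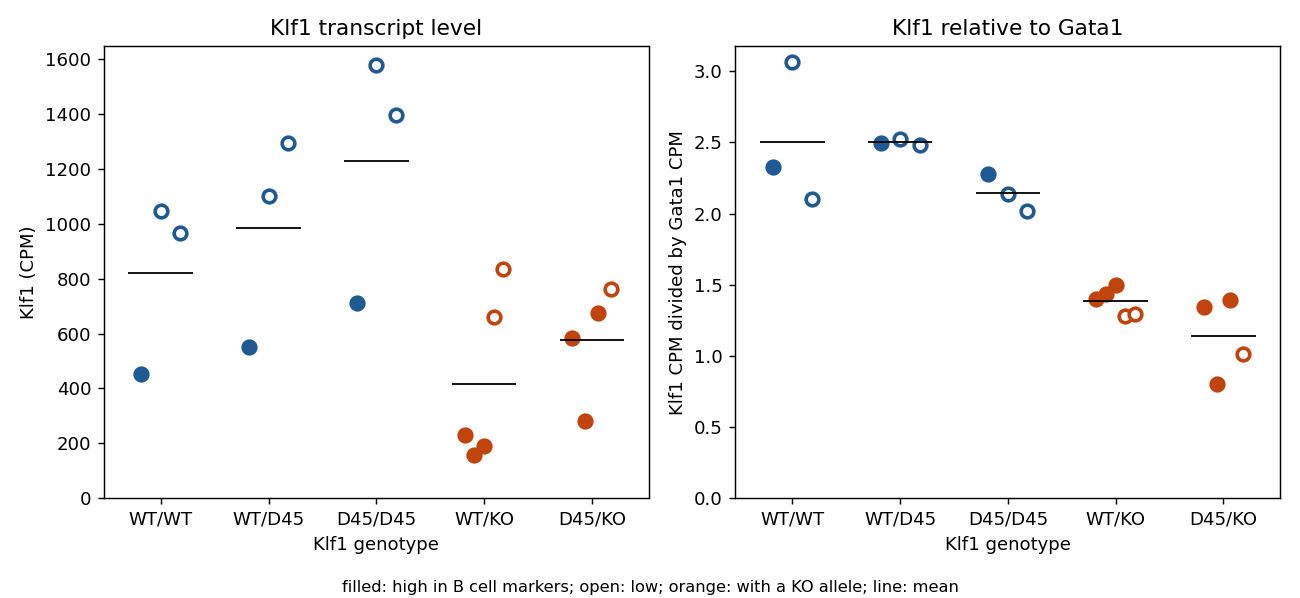
Klf1 in every library of the series, as CPM (left panel) and divided by Gata1 CPM (right panel), by genotype. Each point is a library, filled where B cell markers were high and open where they were low, and the line is the mean. On the left WT/KO and WT/WT overlap, with WT/KO at 158 to 834 CPM, and on the right the libraries with a KO allele lie at 1.50 or below and the others at 2.02 or above.

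Across the genome no gene passed the test between WT/KO and WT/WT. In simulated data the same test called 0 of 67 genes changed 2-fold, so genes without a call may still differ. edgeR's quasi-likelihood test called 0 of 13405 genes at a Benjamini-Hochberg adjusted p under 0.05 (0%), and the smallest adjusted p was 0.673. At an unadjusted p under 0.05 there were 573 genes (4.27%), 320 with higher and 253 with lower values in WT/KO (2.39% and 1.89%). By other tools DESeq2 called 19 genes (0.142%), 5 higher and 14 lower (0.0373% and 0.104%), 2 of the 5 being the Y-linked Uty and Kdm5d, and limma-voom 1 (0.00746%). Limma-voom with a weight for each library called 1160 (8.65%), 257 higher and 903 lower (1.92% and 6.74%). The genes described next are the 10 with the smallest unadjusted p in each direction. They were picked for their values, so their differences and the separation of their groups are a description. Groups did not overlap in 0.627% of all tested genes with WT/KO below and in 0.985% with WT/KO above. Order and overlap of libraries are those of TMM-scaled CPM, and were not examined before scaling beyond the counts shown.

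Tinagl1, which encodes a secreted matricellular protein, had the smallest p. Its level was 2.09, 0, 0, 2.96 and 4.39 CPM in WT/KO replicates 1 to 5 and 89.2, 232 and 164.1 CPM in WT/WT replicates 1 to 3. Every WT/KO library was far below every WT/WT library, high and low libraries alike. In counts, WT/KO had 221, 0, 0, 38 and 131 and WT/WT 3794, 2935 and 1408. The means were 1.89 ± 1.91 CPM (SD, n = 5) and 162 ± 71.6 CPM (n = 3), and the log2 fold change was -6.42 ± 1.19 (SE, edgeR adjusted p = 0.673). With the B cell marker covariate Tinagl1 passed the test at -6.13 ± 0.78 (edgeR adjusted p = 0.0033), and in the low libraries alone at -5.80 ± 0.40 (edgeR adjusted p = 5.3e-08). WT/D45 libraries lay between, with a mean of 14.4 ± 8.76 CPM (SD, n = 3).

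Eef2k encodes the kinase that phosphorylates elongation factor 2 and slows translation. It stood at 33.7, 38.9, 36.3, 69.6 and 87.1 CPM in WT/KO replicates 1 to 5 and at 107, 216 and 160 CPM in WT/WT replicates 1 to 3. In TMM-scaled CPM the WT/KO libraries all lay lower, and the low libraries were the higher ones in both genotypes. Relative to unscaled totals the groups were not apart. WT/WT replicate 3 had 1373 of 23.5 M counts and WT/KO replicate 5 had 2602 of 37.0 M. The high WT/WT replicate 1 had 4556 of 23.1 M. The log2 fold change was -1.60 ± 0.35 (edgeR adjusted p = 0.818), while the covariate fit called it at -1.40 ± 0.20 (edgeR adjusted p = 0.0101).

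KLF1 is known to bind sequences of the form CCNCNCCC, so the promoters of these genes are shown as context. They are RefSeq windows of 250 bases before a transcript start in GRCm38.p6, a later build than the mm9 of the deposited counts. Both windows of Tinagl1 are on the minus strand, at chr4:130175123-130175372 and chr4:130174803-130175052, and the Eef2k window, the only one of its 3 with a match, is on the plus strand at chr7:120843350-120843599. Capitals mark matches to CCNCNCCC on either strand, with overlapping matches run together.
Tinagl1 window 1: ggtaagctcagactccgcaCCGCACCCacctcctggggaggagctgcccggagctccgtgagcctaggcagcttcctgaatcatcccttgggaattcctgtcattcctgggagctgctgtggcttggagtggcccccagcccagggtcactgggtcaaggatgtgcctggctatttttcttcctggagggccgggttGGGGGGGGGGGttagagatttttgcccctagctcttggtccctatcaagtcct
Tinagl1 window 2: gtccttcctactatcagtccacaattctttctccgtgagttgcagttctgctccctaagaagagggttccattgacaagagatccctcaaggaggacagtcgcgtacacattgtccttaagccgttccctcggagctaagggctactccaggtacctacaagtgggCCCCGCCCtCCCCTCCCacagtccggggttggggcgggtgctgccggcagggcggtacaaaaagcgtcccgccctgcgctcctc
Eef2k window 2: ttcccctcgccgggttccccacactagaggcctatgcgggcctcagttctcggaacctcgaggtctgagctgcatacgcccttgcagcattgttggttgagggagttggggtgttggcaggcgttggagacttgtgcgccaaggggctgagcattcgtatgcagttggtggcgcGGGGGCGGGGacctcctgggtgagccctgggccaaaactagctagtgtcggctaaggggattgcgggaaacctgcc
The first Tinagl1 window held 5 matches, 4 of them within a single run of G, the second held 2, and the Eef2k window held 2 on the opposite strand. None held CCACACCC. Such matches are common, since 45.9% of all 32851 windows held CCNCNCCC and 3.2% held CCACACCC, searched on both strands. Of the 10 genes with lower values 7 had windows in the table, and all 7 of these held CCNCNCCC in at least 1 window, in 10 of 14 windows (71.4%). Of the 10 with higher values 9 had windows and 8 of them held it, in 11 of 12 windows (91.7%), while 48.5% of all genes did. Genes with more windows have more chances of a match. CCACACCC was in the windows of 0 genes of either set.

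Cacna1g, a T-type calcium channel subunit, was the member of the red cell membrane transporter list with the smallest p. Its level was 6.50, 2.54, 9.70, 15.6 and 29.7 CPM in WT/KO replicates 1 to 5 and 44.6, 143 and 68.8 CPM in WT/WT replicates 1 to 3. No WT/KO library reached the lowest WT/WT library, and the low libraries were the higher ones in WT/KO. The log2 fold change was -2.74 ± 0.63 (edgeR adjusted p = 0.818), -2.45 ± 0.39 with the covariate (edgeR adjusted p = 0.0207) and -2.30 ± 0.38 in the low libraries (edgeR adjusted p = 0.0092). Dok4, a docking protein of tyrosine kinases, had 2.02, 2.09, 0.655, 7.70 and 8.0 CPM in WT/KO and 13.7, 46.2 and 25.3 CPM in WT/WT. Its groups did not overlap either, with a log2 fold change of -2.80 ± 0.69 and of -2.55 ± 0.43 with the covariate (edgeR adjusted p = 0.818 and 0.0382). These 4 genes, Tinagl1, Eef2k, Cacna1g and Dok4, were all that the fit with the B cell marker covariate called, 0.0298% of the genes tested.

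Ints10, Cbr1, Fbxl19 and Neu3 also had WT/KO libraries wholly below WT/WT. Ints10, a subunit of the Integrator complex of RNA polymerase II, was at 18.1 to 31.2 CPM in WT/KO and at 40.9 to 90.6 CPM in WT/WT (log2 fold change -1.39 ± 0.27). Cbr1, a carbonyl reductase, was at 6.29 to 13.5 CPM against 15.6 to 39.2 CPM (-1.45 ± 0.34). Fbxl19, an F-box protein that binds unmethylated CpG islands, was at 7.53 to 15.5 CPM against 20.8 to 47.1 CPM (-1.47 ± 0.36). Neu3, the plasma membrane sialidase that acts on gangliosides, was at 0.983 to 16.1 CPM against 30.3 to 53.1 CPM (-2.35 ± 0.60). Each of these 4, picked for these values, kept its direction in every fit run. In the low libraries alone Neu3 had -1.76 ± 0.44 and Ints10 -1.56 ± 0.36.

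Gpr56 and G3bp2 completed the lower set with overlapping groups. Gpr56, an adhesion G protein-coupled receptor, was at 0.898, 0.355, 1.70, 0.311 and 1.54 CPM in the 5 WT/KO libraries and at 0.611, 10.3 and 7.69 CPM in the 3 WT/WT libraries. Only the low WT/WT libraries were high in it, and in the high libraries alone the direction turned, to 0.51 ± 0.78 from -2.68 ± 0.66. In the low libraries its log2 fold change was -3.24 ± 0.58 (edgeR adjusted p = 0.019). G3bp2, a stress granule RNA-binding protein, was at 40.2 to 71.6 CPM in WT/KO, against 70.0, 191 and 146 CPM in WT/WT. Its log2 fold change was -1.33 ± 0.33, then -1.94 ± 0.29 in the low libraries (edgeR adjusted p = 0.0060) and -0.33 ± 0.45 in the high ones.

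The 10 genes with higher values in WT/KO differed by less. Bcor, a corepressor of a Polycomb complex, was at 43.3, 39.6, 53.3, 48.6 and 47.5 CPM in WT/KO replicates 1 to 5 and at 30.3, 10.3 and 19.8 CPM in WT/WT replicates 1 to 3. WT/KO libraries lay close together above all WT/WT libraries. The log2 fold change of Bcor was 1.20 ± 0.29 (edgeR adjusted p = 0.818), 1.65 ± 0.32 in the low libraries (edgeR adjusted p = 0.0338) and 0.48 ± 0.40 in the high ones. Ttyh3, of a family of membrane proteins linked to chloride channels, was at 69.3, 59.5, 118, 70.0 and 122 CPM in the 5 WT/KO libraries and at 42.7, 14.3 and 31.9 CPM in the 3 WT/WT libraries. Again the groups were apart, with a log2 fold change of 1.56 ± 0.37, then 2.03 ± 0.33 in the low libraries (edgeR adjusted p = 0.0090) and 0.84 ± 0.51 in the high ones.

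Phf2, a histone lysine demethylase, was at 46.3 to 81.4 CPM in WT/KO and at 23.4 to 42.8 CPM in WT/WT (log2 fold change 1.07 ± 0.28, and 1.55 ± 0.28 in the low libraries with an edgeR adjusted p of 0.019). Scai, a suppressor of the MRTF cofactors of serum response factor, was at 20.4 to 44.2 CPM against 9.19 to 16.4 CPM (1.06 ± 0.29). The remaining values were 0.86 ± 0.23 for Ralgapb, a subunit of the Ral GTPase-activating complex, 1.47 ± 0.44 for the kinesin Kif13b and 0.99 ± 0.29 for the zinc finger gene Zfand3. Inppl1, a lipid phosphatase also named SHIP2, had 1.46 ± 0.46, Slc12a9, of the cation-chloride cotransporter family, 1.98 ± 0.62 and the meiotic MutS homologue Msh5 1.10 ± 0.36. Groups did not overlap for 8 of these 10, Kif13b and Inppl1 being the others. All 10 had smaller log2 fold changes in the high libraries than in the fit to all libraries. In CPM the high WT/WT library was above both low ones for all of them but Zfand3 and Msh5.

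**Figure D2:**
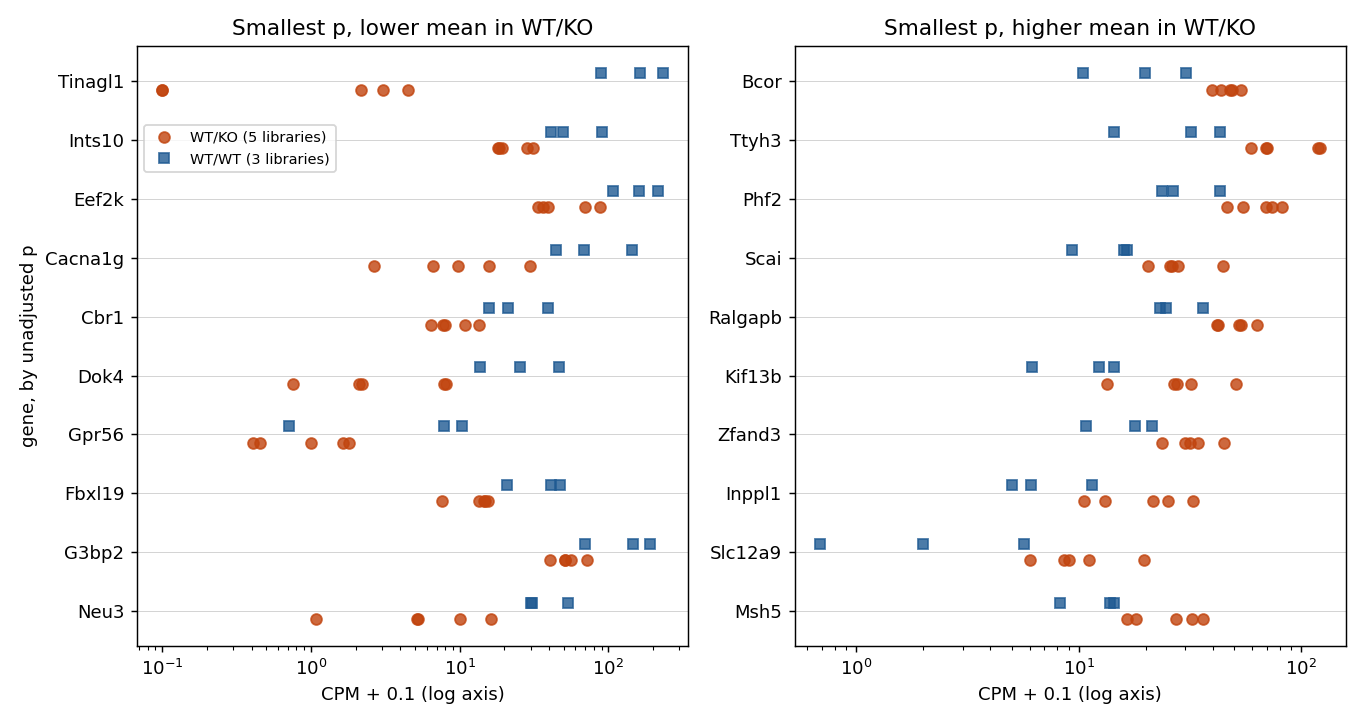
CPM + 0.1 on a log axis for the 10 genes with the smallest unadjusted p in each direction, with the 5 WT/KO libraries as circles and the 3 WT/WT libraries as squares. In 8 genes of each panel the circles and squares do not overlap, and Tinagl1 has the widest gap, from 4.39 CPM in WT/KO to 89.2 CPM in WT/WT.

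**Figure D3:**
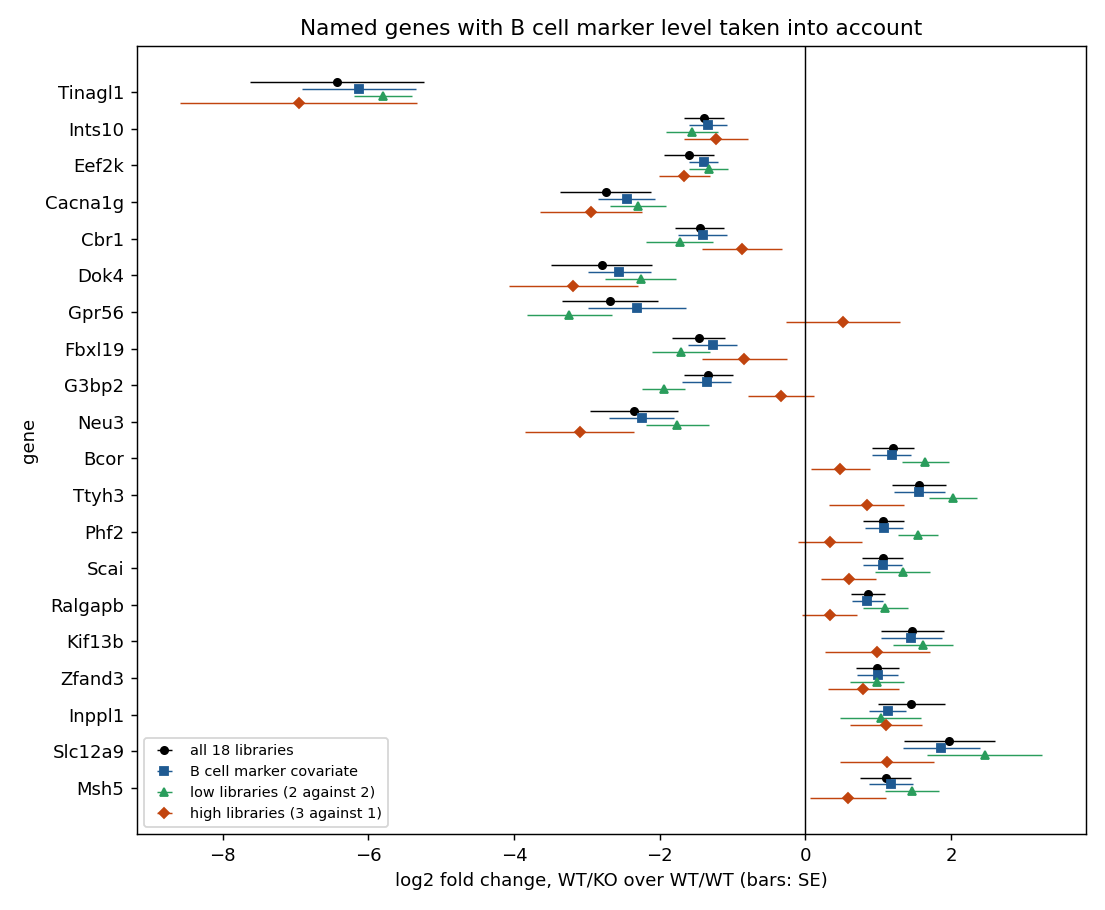
Log2 fold change of WT/KO over WT/WT with its SE for the same 20 genes in 4 fits, with all libraries, with the covariate for B cell markers, in the low libraries and in the high ones. Gpr56 is the gene that changes side, at 0.51 in the high libraries, while Tinagl1 stays between -6.95 and -5.80.

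The low libraries alone, 2 of each genotype here, gave 23 called genes in edgeR (0.168%), 10 higher and 13 lower in WT/KO (0.0729% and 0.0948%). Besides Tinagl1, Cacna1g, Eef2k, Gpr56, G3bp2, Bcor, Ttyh3 and Phf2 they included genes outside the 20 above, named after their values were seen. Rgcc, a regulator of the cell cycle, had 13.5 and 21.3 CPM in the low WT/KO libraries and 165.7 and 105 CPM in the low WT/WT libraries (log2 fold change -3.03 ± 0.47). Chst10, a sulfotransferase of the HNK-1 glycan, had 2.49 ± 0.34 and Iqgap2, a scaffold protein of the actin skeleton, 4.92 ± 0.96. Igj, the joining chain of polymeric immunoglobulins and a plasma cell gene, had -2.38 ± 0.46 there and 0.09 ± 1.08 with all libraries. The high libraries, 3 WT/KO against 1 WT/WT, gave 0 called genes in edgeR and 376 at an unadjusted p under 0.05, and other tools were not run on them.

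The authors' deposited table for this pair puts WT/WT over WT/KO in its log2 fold changes for 9918 genes, so its signs are opposite to those here. The smallest adjusted p in the authors' deposited table was 0.0676, and 6 genes had an adjusted p under 0.1. All 6 were higher in WT/WT, namely Cacna1g, Rgcc, Tinagl1, Neu3, Dok4 and Paqr4. Its log2 fold change was 8.48 for Tinagl1 and 3.50 for Cacna1g, in the authors' deposited table, and 1.25 for Klf1 with an adjusted p of 0.853. Over 9901 matched genes its values and those of the fit here had a Pearson correlation of 0.85 after the sign was turned, a description across genes that come from the same libraries.

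Textbook KLF1 targets had lower values in WT/KO as a rule, and their calls depended on the tool. Of 38 members tested 0 were called by edgeR, DESeq2 or limma-voom and 33 had log2 fold changes below 0, with a median of -0.60, where the median of all tested genes was 0.26 and 62.2% were above 0. The level of erythroblast markers differed in the same direction, all 10 of them below 0 with a median of -0.59, and their part in this was not tested. With the B cell marker covariate the median of the targets was -0.28, with 28 of 38 below 0, and that of all genes 0.06. In the low libraries it was -0.14, with 22 below 0. Limma-voom with library weights called 21 of the 38, all lower in WT/KO, where it called 6.74% of all genes lower. Among these were Klf3 (adjusted p = 0.0229), Icam4 (0.0274), Kel (0.0287), E2f2 (0.0304) and Alas2 (0.0475). That fit also called 7 of the 10 erythroblast markers lower.

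Klf3, a KLF family repressor whose gene KLF1 activates, was at 63.3, 76.9, 93.7, 230 and 239 CPM in the 5 WT/KO libraries and at 165, 334 and 280 CPM in the 3 WT/WT libraries. The high WT/KO libraries were the lowest and the others overlapped WT/WT, with a log2 fold change of -0.88 ± 0.46. Among cell cycle targets E2f2 had -0.80 ± 0.73, E2f4 -0.50 ± 0.50 and the cyclin-dependent kinase inhibitor Cdkn1b -0.71 ± 0.59. Dematin, an actin bundler encoded by Epb4.9, had -0.93 ± 0.69, Slc4a1, the band 3 anion exchanger, -0.68 ± 1.22 and the Kell antigen gene Kel -0.65 ± 0.67. The smallest distances from 0 were those of Sptb, beta spectrin (-0.07 ± 0.73), Gata1 and the transferrin receptor gene Tfr2 (0.11 ± 0.42). The values of the ankyrin gene Ank1 and of Epb4.2 were not stable in sign, since in the low libraries they were 0.21 and 0.08 in place of -0.21 and -0.46. In the KLF family, Klf11 was at 8.66, 9.82, 8.13, 18.2 and 41.2 CPM in the 5 WT/KO libraries and at 40.3, 50.8 and 38.5 CPM in the 3 WT/WT libraries, with WT/KO replicate 5 alone inside the wild-type range (-1.33 ± 0.47, unadjusted p = 0.0111, and -0.65 ± 0.37 in the low libraries).

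Genes of the In(Lu) antigens had no common direction. Lutheran itself, Bcam, had 13 counts in all 8 libraries together and was not tested. Cd44 was at 35.3, 106, 72.2, 13.4 and 6.60 CPM in the 5 WT/KO libraries and at 30.9, 7.13 and 14.9 CPM in the 3 WT/WT libraries. Its order followed the B cell markers rather than the genotype, being highest in the high libraries of both, and its log2 fold change of 1.40 ± 0.96 turned to -0.17 ± 0.62 in the low libraries. Icam4, the LW antigen, had -0.65 ± 0.65, Aqp1, the Colton antigen, -0.37 ± 0.64 and A4galt, the P1PK synthase, 1.28 ± 1.77 at a mean of under 1 CPM in both groups. The whole list of blood group and surface genes had 19 of 23 members below 0 with a median of -0.53. The median was -0.28 with the B cell marker covariate and -0.16 in the low libraries. EdgeR called 0 of these genes and limma-voom with library weights 14, all lower, where it called 6.74% of all tested genes lower.

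Adult beta globin varied widely within each genotype. Hbb-b1 was at 25809, 57463, 13994, 322422 and 112802 CPM in the 5 WT/KO libraries and at 25602, 305265 and 639423 CPM in the 3 WT/WT libraries. The low libraries were high in both genotypes, with a log2 fold change of -1.60 ± 3.09. Globin transcripts made up 18.3% ± 11.6 of counts (SD, n = 5) in WT/KO and 31.6% ± 19.4 (n = 3) in WT/WT (exact permutation p = 0.25). The alpha globin symbols Hba-a1 and Hba-a2 had 37 and 3 counts in the 8 libraries and were not tested.

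Embryonic globins stayed near the limit of detection. Hbb-bh1 had 1, 26, 0, 43 and 32 counts in WT/KO replicates 1 to 5 and 11, 0 and 0 in WT/WT replicates 1 to 3. Only the low WT/KO libraries and replicate 2 were above the WT/WT libraries in CPM, and the log2 fold change of 3.20 ± 1.68 turned to -0.61 ± 2.52 in the high libraries. Hbb-y had 27, 12, 4, 61 and 29 counts against 16, 0 and 8 (1.58 ± 1.38). Of 15 repressors of these genes 9 were above 0 with a median of 0.06. With the B cell marker covariate 13 were above 0 (median 0.27). In the low libraries 14 were (median 0.45), and in the high ones 5 (median -0.21). Bcl11a, which KLF1 activates, was at 4.2 to 63.5 CPM in WT/KO and at 3.48 to 44.2 CPM in WT/WT, high in the high libraries of both genotypes (0.87 ± 1.11). Nr2c2, an orphan nuclear receptor that binds the embryonic globin promoters, was at 23.0 to 49.5 CPM against 12.1 to 30.7 CPM (0.76 ± 0.33, unadjusted p = 0.0372), the only repressor under 0.05.

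Haem, iron, maturation and antioxidant genes mostly had values below 0. EdgeR, DESeq2 and limma-voom called 0 of them. Limma-voom with library weights called 10 of 19 haem, 6 of 17 iron, 19 of 26 maturation and 13 of 23 antioxidant genes, all lower in WT/KO. That fit called 6.74% of all tested genes lower. The haem list had 15 of 19 members below 0 (median -0.58), among them Alas2, the erythroid first enzyme of the pathway (-1.22 ± 1.26), and the mitochondrial carrier Slc25a39 (-1.46 ± 0.92), while the housekeeping form Alas1 had 1.28 ± 0.67. Terminal maturation genes had 25 of 26 below 0 (median -0.78), led by the translocator protein gene Tspo2 at -1.59 ± 0.83. In iron handling 12 of 17 were below 0, and Steap3, the endosomal ferrireductase, was at 41.2 to 125 CPM in WT/KO, against 57.8, 295 and 140 CPM in WT/WT (-1.11 ± 0.45, unadjusted p = 0.0252, and -0.65 ± 0.27 with the covariate). Fam132b, the gene of the iron hormone erythroferrone, had -1.71 ± 0.90. Antioxidant genes had 20 of 23 below 0 (median -0.65), with thioredoxin Txn2 at -0.80 ± 0.39 and Sod2 at -0.84 ± 0.45. With the B cell marker covariate the median was -0.26 for haem, -0.23 for iron, -0.26 for maturation and -0.26 for antioxidant genes.

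Membrane genes were mixed. Of 36 transporters and channels 24 were below 0 (median -0.21, and 0.10 in the low libraries), 1 at an unadjusted p under 0.05, which was Cacna1g. Above 0 at that level were 2 members, among them Atp2b1, a plasma membrane calcium pump, at 25.9 to 75.8 CPM in WT/KO and 12.4 to 32.5 CPM in WT/WT (1.15 ± 0.38). The amino acid transporter Slc1a5 had -1.05 ± 0.57. In the membrane skeleton 16 of 22 were below 0 (median -0.34, and -0.21 with the covariate), and tropomyosin Tpm1 had -1.35 ± 0.63 (unadjusted p = 0.047), then -0.81 ± 0.29 with the covariate. Limma-voom with library weights called 14 of the transporters and 10 of the skeleton genes, all lower, where edgeR called 0. The weighted fit called 6.74% of all tested genes lower. The values of Tpm1, 32.7 to 216 CPM in WT/KO and 62.2, 308 and 399 CPM in WT/WT, overlapped between the groups.

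Cell cycle genes had opposite directions in the low and the high libraries. Of 30 genes of S, G2 and M phase 26 were below 0 with a median of -0.23 in all libraries, 28 were above 0 with a median of 0.36 in the low libraries, and 30 were below 0 with a median of -1.0 in the high ones. With the B cell marker covariate 25 were below 0, with a median of -0.14. Glycolytic enzymes had 16 of 18 above 0 with a median of 0.58, which was 0.15 with the covariate (12 of 18 above 0) and 0.24 in the low libraries (10 of 17). Among them Pgk1 was at 0.99 ± 0.56, while Bpgm, which makes the red cell's 2,3-bisphosphoglycerate, had -1.08 ± 1.14. In the erythropoietin and STAT5 list 12 of 28 were below 0 (median 0.39, and -0.08 with the covariate). Cish, a STAT5-induced inhibitor of cytokine signalling, was at 0.482, 0.828, 1.31, 0.623 and 4.52 CPM in the 5 WT/KO libraries and at 6.30, 2.69 and 14.1 CPM in the 3 WT/WT libraries (-2.30 ± 0.94, unadjusted p = 0.0266). WT/KO replicate 5 lay inside the wild-type range and the other 4 below it. Erythroid transcription factors had a median of -0.05 over 26 genes and ribosomal proteins one of 0.03 over 78, where Rpl39 had -0.65 ± 0.31 (unadjusted p = 0.0482).

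**Figure D4:**
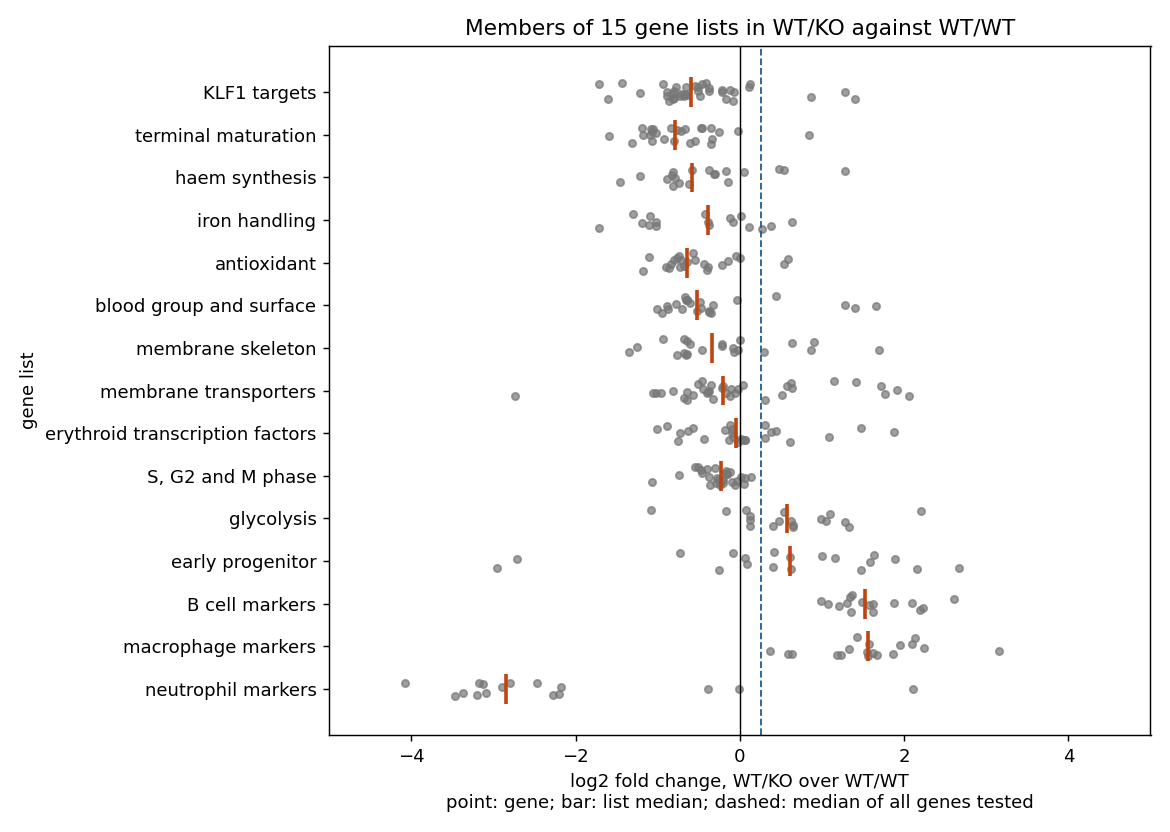
Log2 fold change of WT/KO over WT/WT for the tested members of 15 gene lists, with a point for each gene, a bar at the list's median and a dashed line at the median of all genes tested (0.26). Terminal maturation genes and KLF1 targets lie mostly below 0 with medians of -0.78 and -0.60, B cell and macrophage markers lie above 0, and neutrophil markers have the lowest median, -2.85.

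Neutrophil markers had the lowest median of all lists. Of 16 tested 15 were below 0 in WT/KO, with a median of -2.85, and edgeR called 0 with all libraries. At an unadjusted p under 0.05 in edgeR 5 were lower, where 1.89% of all tested genes were. Groups did not overlap for 6, with WT/KO below, where this held for 0.627% of all tested genes. Their summed level was 2.88 to 64.0 CPM in WT/KO and 130 to 317 CPM in WT/WT, so that the groups were apart in that sum. The granule gene Ngp was at 14.1, 2.25, 6.16, 0 and 6.16 CPM in the 5 WT/KO libraries and at 57.6, 58.4 and 31.5 CPM in the 3 WT/WT libraries. Every WT/KO library was below every WT/WT library, and the same held for the calgranulin gene S100a8, at 9.15, 1.77, 5.11, 0.467 and 3.95 CPM against 31.4, 40.9 and 19.3 CPM. Promyelocyte genes behaved less evenly, with Elane at 0 to 3.38 CPM against 3.41, 19.6 and 0 CPM. The mean log2 CPM of the list was -1.08 ± 1.42 (SD, n = 5) in WT/KO and 1.62 ± 1.04 (n = 3) in WT/WT (exact permutation p = 0.0714, adjusted p = 0.591 over 13 values compared this way). In the low libraries the median was -3.14, with lactoferrin Ltf and lipocalin Lcn2 called, and in the high ones -2.85. In D45/KO against D45/D45 the median was 0.47.

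B cell and macrophage markers had values above 0. All 16 B cell markers did, with a median of 1.53, and their summed level was 6.93 to 2422 CPM in WT/KO and 11.9 to 1375 CPM in WT/WT, high in the libraries named high above. All 18 macrophage and monocyte markers were above 0 with a median of 1.56, and their sum was 156 to 3817 CPM in WT/KO and 326 to 648 CPM in WT/WT. WT/KO replicates 2 and 3 had the highest mean levels, and in the low libraries 16 of the 18 were below 0. The sialoadhesin gene Siglec1, a marker of macrophages that nurse erythroblasts, had 3.16 ± 1.44. T and NK cell markers had 17 of 18 above 0 (median 1.66), and platelet markers 12 of 14.

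The same null allele was also studied beside D45, in 4 D45/KO against 3 D45/D45 libraries, a comparison that shares no library with that of WT/KO and WT/WT. For Klf1 the log2 fold changes were -0.99 ± 0.56 beside WT and -1.09 ± 0.60 beside D45. Cacna1g (-2.74 and -4.00), Dok4 (-2.80 and -2.59), Eef2k (-1.60 and -0.89), Fbxl19 (-1.47 and -0.96) and Tinagl1 (-6.42 and -2.34) had lower values with the null allele in both. For Tinagl1 the D45/D45 libraries were already at 0.768 ± 0.476 CPM (SD, n = 3), below the WT/KO mean. Neu3, Gpr56 and Ints10 were at -0.01, -0.08 and -0.25 beside D45, and G3bp2 and Cbr1 had the opposite sign there, 0.51 ± 0.36 and 0.88 ± 0.37. Of the 10 genes 8 kept the sign beside D45, Neu3 and Gpr56 among them with values near 0. Of all tested genes 70.8% had the same sign in both comparisons. In the higher set 6 of 10 kept the sign, a share no higher than that of all genes. Scai (0.90 ± 0.29) and Inppl1 (1.02 ± 0.46) were the nearest in size, whereas Msh5 had -0.62 ± 0.35 and Slc12a9 -0.59 ± 0.59.

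The difference between both comparisons was tested in the same fit, and edgeR called 0 of 13405 genes, with 174 at an unadjusted p under 0.05 (1.3%). DESeq2 called 2, Cbr1 and the unnamed transcript Gm16793. Over all tested genes 70.8% had the same sign in both comparisons and the log2 fold changes had a Pearson correlation of 0.31, a description across genes of 15 libraries. High libraries were more frequent with the null allele in both comparisons, at 3 of 5 WT/KO against 1 of 3 WT/WT and at 3 of 4 D45/KO against 1 of 3 D45/D45, and their part in the shared signs was not tested. Of the 573 genes at an unadjusted p under 0.05 beside WT, 431 (75.2%) had the same sign beside D45. The mean of WT/D45, which also has a single wild-type allele, lay between WT/WT and WT/KO for 9 of the 10 lower and 10 of the 10 higher genes. That mean is set against the same WT/WT libraries that chose these genes.

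**Figure D5:**
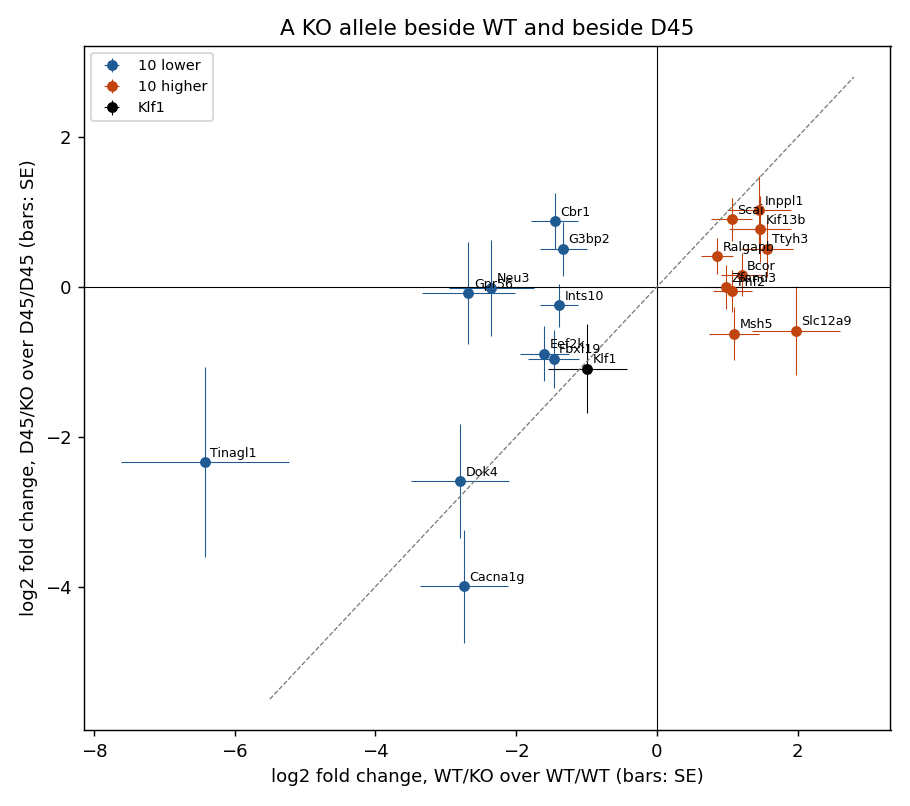
Log2 fold change of WT/KO over WT/WT (horizontal axis) against that of D45/KO over D45/D45 (vertical axis) for Klf1 and the 20 genes, with SE bars and a dashed line of equal change. Dok4 and Klf1 lie near the line, Cacna1g is lower beside D45, Tinagl1 is lower beside WT, and Cbr1 and G3bp2 lie above 0 beside D45.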

How the data were processed

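Per the labels' protocols, Trizol was used to extract RNA and a Swift Rapid kit to build libraries. HISAT2, featureCounts and limma, with no version, and the mouse build mm9 are named in the submitters' processing notes, and no source used here says if strand entered the counting. The counts were deposited as whole numbers, not normalized, with 1 row for each gene symbol, of which 27 are date-like and 2 repeated and are not named. A further table holds, per its headers, CPM values by the authors (not used here), the authors' log2 fold changes with WT/KO as the denominator, and the authors' deposited p-values.

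Groups came from the genotype label. In R 4.3.3, edgeR 4.0.16 kept the genes passing filterByExpr by genotype, scaled them by TMM and fitted genotype to all 18 libraries by quasi-likelihood without robust estimation. A gene was called where its Benjamini-Hochberg adjusted p was under 0.05. CPM uses TMM-adjusted library sizes, with factors of 0.366 to 1.93, and a prior count of 2 enters log2 CPM. Each SE of a log2 fold change is its size over the square root of F, which is approximate for genes near 0 counts. Libraries were split into 9 high and 9 low in B cell markers at the widest gap of their mean log2 CPM, between -1.31 and 3.40. The edgeR script was tested on data simulated with the spread of this fit. It called 0 of 67 genes given a 2-fold change, 24 of 67 given a 4-fold change and 32 of 66 given an 8-fold change. A single read is about 0.107 CPM in the shallowest library before TMM scaling.

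Named are Klf1, a fixed erythroid set, the 10 genes with the smallest unadjusted p per direction (mean of at least 2 CPM, no predicted or unnamed transcripts), and up to 2 members per list and direction at an unadjusted p under 0.05, some left out for length and some not reported here. Genes outside this rule were chosen after their values were seen, as were the quotient over Gata1, the Y-linked settings and the beta globin symbol Beta-s. The comparison, the lists and the rule were chosen with earlier results of these data known, and p-values measure the spread between these mice. DESeq2 1.42.0 and limma 3.58.1 were alternatives, as were other scalings, filters, covariates and left-out libraries.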

Additional observations from a re-analysis of the deposited data

Results flagged for a closer look

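Within WT/KO, 67 values per library were examined for a sample far from the rest. Of these, 3 stood apart, where chance gives about 1 in 20. WT/WT libraries were not examined this way. WT/KO replicate 3 had 11.5% of its counts on Rn45s, and the other WT/KO libraries had 0.107% to 1.06%. WT/KO replicate 2 had a log2 CPM of 2.92 for Fbxl19, and the others had 3.76 to 3.96. WT/KO replicate 1 had a log2 CPM of -2.42 for Eda2r, a p53 target, from 14 counts, where the others had 0 counts and a log2 CPM of -4.21.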

How the results depend on the processing

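Of the genes with the smallest p, 19 of 20 kept their sign in every fit, Gpr56 excepted. These genes were picked for their values in the same libraries, and groups did not overlap for 8 of 10 in each direction. A reversed sign was therefore unlikely, and the count is a description. The count of genes called in WT/KO against WT/WT was 0 with all libraries and 0 to 1 with each library left out, the 1 being Nprl2, higher without WT/WT replicate 1. It was 19 with DESeq2, 1 with limma-voom, 1160 with library weights, 4 with the B cell marker covariate and 23 in the low libraries. The difference from the D45 comparison gave 2 genes with DESeq2, 2 with the B cell marker covariate, 1 with library weights and 1 in the low libraries. With library weights Klf1 passed at -1.84 (adjusted p = 0.0217). The replicate number as a block gave 0 called genes in both, with Klf1 at -1.84 (edgeR adjusted p = 0.119), and same-numbered libraries deviated together in 1 of 3 pairs (r = 0.66, -0.35 and -0.12), so the numbers were not taken to pair them. The cause of these changes was not tested.

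Some log2 fold changes changed sign, all of genes with no call in the edgeR fit to all libraries. With limma-voom Pklr was -0.018, and with library weights Hbb-y was -0.76 and Hbb-bh1 -0.16. With the B cell marker covariate Gata1 was 0.072 and Ank1 0.058. In the low libraries Gata1 was 0.49, Ank1 0.21, Epb4.2 0.077, Rhag 0.060, Cd44 -0.17, Aqp1 0.16, A4galt -1.59 and Tfrc 0.15. In the high ones Alas2 was 0.66, Hbb-b1 0.25, Hbb-y -0.68, Hbb-bh1 -0.61, Pklr -1.08 and Gpr56 0.51. With Y-linked transcripts as a covariate Gata1 was 0.086, and without the libraries that hold them Gata1 was 0.34, Ank1 0.11, Epb4.2 0.046, Rhag 0.020, Aqp1 0.014, Tfrc 0.068 and Pklr -0.13. Both Y-linked settings were chosen after seeing the data. With each library left out, Gata1 ran from -0.53 to 0.22, Epb4.2 from -0.96 to 0.12, A4galt from -0.85 to 3.83 and Pklr from -0.28 to 1.50. Differences per library that changed sign this way were genes with at least 1 count (-314.4 to 1973.6), T and NK markers (-0.011 to 2.17), mast cell markers (-1.42 to 0.35) and endothelial markers (-0.28 to 0.51). Depth limits genes near 0 counts, such as Hbb-bh1 and A4galt.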
